A study of Mus musculus with 18 samples.

Results

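Oxidative phosphorylation is run by 5 protein complexes of the inner mitochondrial membrane, and its subunits are encoded partly in the nucleus and partly in mitochondrial DNA (mtDNA). The genes described here are the protein-coding rows whose mouse symbols begin with the stems of these subunits (mt-Nd, mt-Co, mt-Atp, mt-Cytb, Ndufa, Ndufb, Ndufc, Ndufs, Ndufv, Uqcr, Atp5 and Cox4 to Cox8), with Sdha, Sdhb, Sdhc and Sdhd, and without the Ndufaf assembly factors. The rule found 99 rows among the 54347 genes measured, 13 encoded by mtDNA and 86 by the nucleus. They carry 98 symbols, because Atp5o stands in 2 rows. Assembly factors, mitochondrial ribosomes and the import machinery are not among them and serve as neighbouring lists.

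The 18 RNA-seq libraries, 3 in each of 6 groups, came from mesenchymal stem cells (MSC) of the marrow of male C57BL/6J mice, adherent cells able to form fat and bone. The first experiment compared untreated cells (control) with cells treated with CK666, which blocks the branching of actin filaments by the Arp2/3 complex, or with cytochalasin D (CytoD), which blocks actin filament growth. In the second, all cells were transfected, with a control siRNA that the labels also call mock (siControl), with an siRNA against Arp4, a nuclear actin-related protein encoded by Actl6a (siArp4), or with that siRNA followed by CK666 (siArp4+CK666). No siControl cells treated with CK666 were analysed here, so the CK666 effect within the transfected cells could be read only on top of the knockdown. The cells are a primary line made from the marrow of several mice, and the methods call the libraries of a group distinct preparations without saying whether these were separate cultures, so p-values measure the spread between preparations, which may be technical. In such bulk samples fewer cells of a type and less RNA per cell cannot be told apart.

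Complexes I to IV pass electrons from NADH and succinate to oxygen, all of them but complex II pumping protons on the way, and complex V, the ATP synthase, lets the protons back and makes ATP. Complex II is wholly nuclear-encoded, while every other complex joins subunits from both genomes. The genes of mtDNA are transcribed as long precursors from each strand, which are cut at the transfer RNAs between them into ribosomal RNAs and messenger RNAs. In MSC, mitochondrial activity is known to change as the cells commit to fat or bone.

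Total estimated counts ran from 18075621 to 24733307 per library, and no pair of replicates of a group was a repeat of the other (chi-square per degree of freedom at least 6.47). The stromal markers Pdgfra, Pdgfrb, Cd44, Col1a1 and Vcam1 had group means from 254.5 to 84628 normalized counts, while Thy1 was at 0 in every group mean and Nt5e between 0.279 and 3.05 normalized counts. Of the markers of blood and endothelial cells, Ptprc, Itgam and Cdh5 were at or near 0, and the highest group mean among the others was 112 for Cd68 in CytoD cells. Actl6a stood at 720, 1127 and 841 normalized counts in siControl, at 48.9, 57.2 and 19.0 in siArp4, with 9.52, 22.9 and 17.9 in siArp4+CK666.

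A pair of libraries, siControl 2 and CK666 1, stood apart in the members themselves, and both also in other genes of like length. Nuclear-encoded subunits took 1.24%, 2.56% and 1.78% of the counts in siControl 1, 2 and 3, and 1.16%, 0.827% and 0.899% in CK666 1, 2 and 3. Other protein-coding genes with a representative transcript of up to 1000 bases took 8.43%, 20.1% and 13.5% in the same siControl libraries and 10.8%, 6.77% and 7.60% in the same CK666 libraries. Library siControl 2 held the highest share of both kinds among the 18 libraries, and CK666 1 was above the other CK666 libraries in both. In siArp4+CK666 1, 2 and 3 the subunits took 1.14%, 1.35% and 1.65%, and the other short genes 7.85%, 9.65% and 12.1%. Library siArp4+CK666 3 was thus also the highest of its group in both. Of the 86 nuclear-encoded rows 53 have representative transcripts of up to 1000 bases, with a median of 787 bases against 2590.5 for other nuclear protein-coding genes. The part of this difference between libraries in the results below was not tested, so counts, medians and the members most affected are also given without the library concerned, and counts and medians after removal of a trend with transcript length, an alternative chosen after seeing the data.

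**Figure D1:**
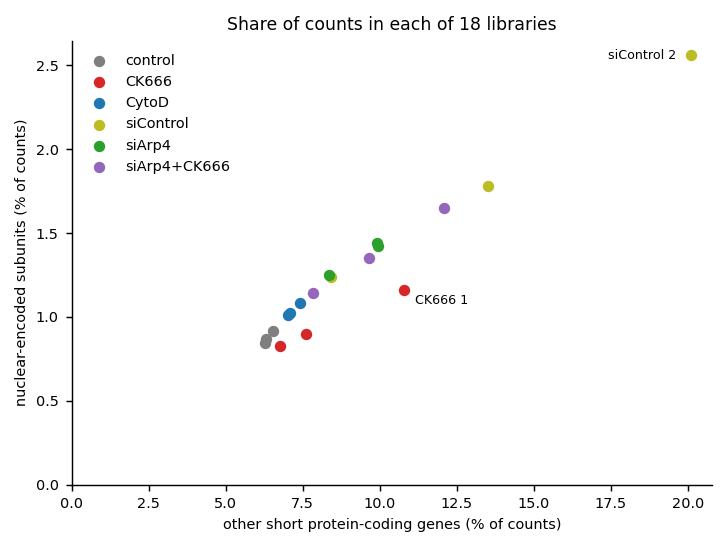
Share of the counts taken by the nuclear-encoded oxidative phosphorylation subunits (vertical axis, percent of counts) against the share taken by other protein-coding genes with transcripts of up to 1000 bases (horizontal axis, percent of counts), 1 point per library, coloured by group. Library siControl 2 is at 2.56% and 20.1%, and CK666 1 at 1.16% and 10.8%, to the right of the other CK666 libraries.

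Levels were compared between genes only as normalized counts per kilobase of representative transcript. In control cells the 13 mtDNA messages had a median level of 24650 per kilobase, from 10333 for mt-Nd5 to 58346 for mt-Atp6. Nuclear-encoded subunits with a mean count of at least 100 had median levels per kilobase of 1072 in complex I (36 genes), 1045 in complex II (4), 1681 in complex III (8), 3134 in complex IV (12) and 2839 in complex V (17). Their highest member was Atp5b, the catalytic beta subunit of the ATP synthase, at 14754 ± 1169 per kilobase (SD, n = 3), and mt-Co1, the catalytic core of complex IV, was at 49786 ± 6852. The mtDNA messages together took 1.28% to 3.29% of a library, and their summed counts were between 0.50 times (siControl 2) and 2.89 times (siArp4+CK666 1) the summed counts of the nuclear-encoded subunits.

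A further 9 member rows had a mean below 100 normalized counts, and they are largely the muscle, testis and lung forms of complex IV subunits. Cox8c and the second Atp5o row were at 0 in all 18 libraries, Cox8b and Cox7b2 had counts in 1 library each, and Cox4i2, Cox6b2 and Ndufa4l2 stayed between 0 and 11.8 normalized counts. Cox6a2 and Cox7a1, the other low members, are described with their comparisons. Their common partners were abundant, with Cox4i1 at 5236 ± 299 and Cox5a at 1944 ± 17.9 normalized counts in control (SD, n = 3). Cox5a, a nuclear-encoded subunit of complex IV, passed the test in none of the 6 comparisons (log2 fold change 0.25 for CK666, -0.10 for CytoD, 0.04 for siArp4 and -0.13 for siArp4+CK666, against their controls). Without siControl 2 the last pair of values was 0.58 and 0.42, and neither was called.

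CK666 shifted the mtDNA messages unequally: mt-Co1 and mt-Co2 of complex IV were higher than in control, and mt-Cytb of complex III, mt-Nd3, mt-Nd4 and mt-Nd5 of complex I and mt-Nd6, the only message of the opposite strand, were lower. A gene is called here where the Benjamini-Hochberg adjusted p of the DESeq2 Wald test over all genes was below 0.01. Of the 92 members tested 7 were higher and 7 lower, against a background of 15.3% of all genes tested called higher and 14.7% called lower. Of the 13 mtDNA messages 2 were higher and 5 lower, and of the 79 nuclear-encoded subunits tested 5 were higher and 2 lower. The count of 14 was 9, 8 and 9 without control 1, 2 and 3, 24, 29 and 9 without CK666 1, 2 and 3, 8 with the quasi-likelihood test of edgeR and 22 with the length trend removed.

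The largest fall was that of mt-Cytb, the cytochrome b core of complex III, at chrM:14145-15288 on the plus strand. Its normalized counts were 25489, 30954 and 34184 in control and 9536, 14273 and 14434 in CK666. All 3 CK666 libraries lay below all 3 control libraries, and the log2 fold change was -1.24 ± 0.17 (SE; adjusted p = 2.85e-12, DESeq2). It was called under all 14 alternatives, with values from -1.35 to -1.07. Under the stricter rule that also asks for an absolute log2 fold change over 1, mt-Cytb and Cox6a2 were the members called, against a background of 11.0% of all genes tested.

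The counts of mt-Co1, at chrM:5328-6872, were 65304, 79430 and 86027 in control and 90439, 140662 and 135648 in CK666. The groups did not overlap, and mt-Co1 was higher by 0.67 ± 0.17 on the log2 scale (adjusted p = 0.000404, DESeq2). The call was lost with the length trend removed (0.58, adjusted p = 0.0138) and without CK666 3. For mt-Nd6, a complex I subunit at chrM:13552-14070 on the minus strand, counts were 5381, 5461 and 6564 in control and 3723, 3881 and 3761 in CK666. The 3 CK666 values were close together and below every control value, and the fitted log2 difference was -0.61 ± 0.10 (adjusted p = 2.67e-08), with a call under all 14 alternatives. Its gene shares bases with mt-Nd5 on the other strand and the libraries were unstranded, so reads of the shared stretch cannot be told apart.

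Because mt-Co1 and mt-Cytb moved in opposite directions, their ratio within a library was also read, a measure chosen after its values were seen and therefore given without a test. There were 39.0, 39.0 and 39.7 counts of mt-Cytb per 100 of mt-Co1 in control, 34.8, 34.0 and 33.6 in CytoD, and 10.5, 10.1 and 10.6 in CK666. Library CK666 1, which stood apart in its short genes, did not stand apart in this ratio. In the transfected cells the ratio was 34.5, 148 and 49.7 in siControl, 43.0, 45.0 and 38.8 in siArp4, with 17.3, 20.0 and 24.2 in siArp4+CK666. Every siArp4+CK666 library was below every siArp4 and siControl library, and siControl 2 was far above all others, with 22883 normalized counts of mt-Co1 against 122281 and 87311 in siControl 1 and 3.

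**Figure D2:**
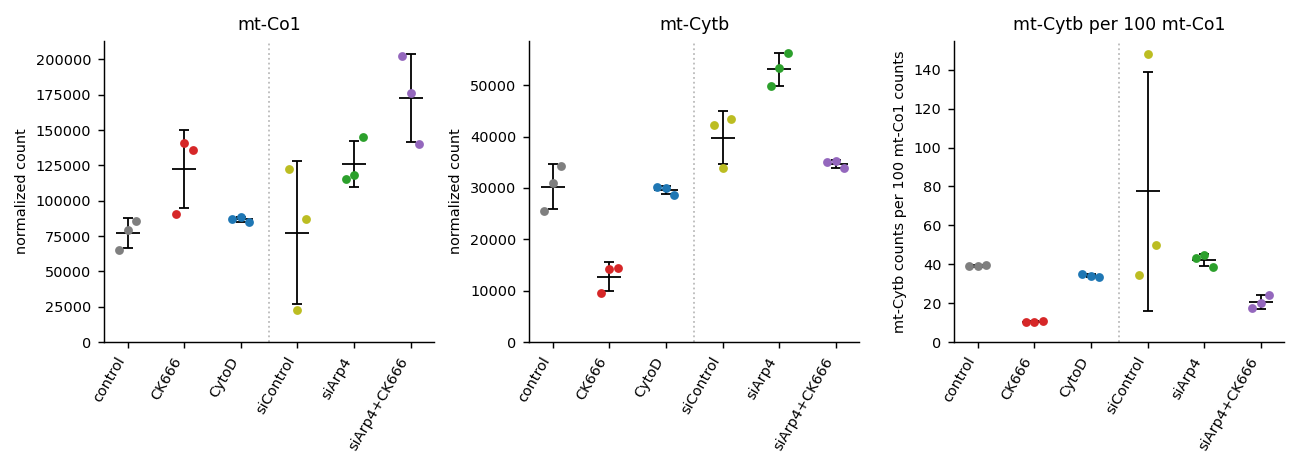
Normalized counts of mt-Co1 and mt-Cytb and the counts of mt-Cytb per 100 of mt-Co1, by group; points are libraries, bars the mean ± SD (n = 3), and the dotted line separates the 2 experiments, which were normalized separately. The ratio is 10.1 to 10.6 in the CK666 libraries and 39.0 to 39.7 in control, and siControl 2 is the point at 148.

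Along the heavy-strand precursor, the differences after CK666 ran downward with gene order. This long transcript carries the 2 ribosomal RNAs and 12 of the 13 protein-coding genes of mtDNA. Each such gene is counted as 1 message throughout. However, mt-Atp8 and mt-Atp6 share 43 bases and mt-Nd4l and mt-Nd4 share 7, so their values are not separate measures. From mt-Nd1 to mt-Cytb the log2 fold changes were -0.22, -0.27, 0.67 (mt-Co1), 0.30 (mt-Co2), -0.63 (mt-Atp8), -0.37 (mt-Atp6), 0.15 (mt-Co3), -0.54 (mt-Nd3), -0.88 (mt-Nd4l), -0.83 (mt-Nd4), -0.87 (mt-Nd5) and -1.24 (mt-Cytb). Spearman's rho with gene order was -0.80 over these 12 genes, which share libraries and lie on 1 molecule, so it is given as a description. Without CK666 1 the rho was -0.79, with mt-Co1 at 0.85, mt-Nd4 at -0.56, mt-Nd5 at -0.57 and mt-Cytb at -1.07, all called. Of these, mt-Co2 lost its call under 6 of 14 alternatives, among them the length trend removed (0.16) and edgeR, mt-Nd3 lost its call without control 1 and without CK666 3, and mt-Nd4 and mt-Nd5 lost theirs with the length trend removed (adjusted p = 0.0222 and 0.0234), with edgeR (0.0193 and 0.0286) and without control 2 or control 3.

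The ribosomal RNAs, which precede the messages on the same strand, were higher after CK666. The counts of mt-Rnr1, the small ribosomal RNA, were 1474, 1570 and 1728 in control and 5648, 4346 and 4354 in CK666, a log2 fold change of 1.59 ± 0.13 (adjusted p = 2.71e-32). For mt-Rnr2, the large one, they were 3560, 3992 and 4285 against 6881, 6879 and 6772 (0.79 ± 0.09, adjusted p = 1.16e-16). Both groups were fully apart in both genes, and both calls were kept under all 14 alternatives. These 2 RNAs made up 0.0181% to 0.0871% of each library's counts, and whether the libraries were depleted of ribosomal RNA is not stated in those sources that were used here.

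Messages that share bases on this strand cannot be told apart there, which matters most for the shortest. The end of mt-Atp8, a 204-base gene for a small ATP synthase subunit, is also the start of mt-Atp6, and the 43 shared bases at chrM:7927-7969 (plus strand, GRCm38) are shown because any read inside them belongs to both genes. No letter is capitalised.
mt-Atp8/mt-Atp6: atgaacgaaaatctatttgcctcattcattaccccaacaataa
Short messages varied widely between libraries: mt-Atp8 had 675 normalized counts in siControl 2 against 11308 and 7309 in siControl 1 and 3, and 1740 in CK666 1 against 4385 and 3609 in CK666 2 and 3. For mt-Nd4l the values were 778 against 5064 and 2176, and 1163 against 4346 and 3120. Within these groups both genes were lowest in the libraries that stood apart, and neither passed the test after CK666 with all libraries. Without CK666 1 both were called lower, mt-Atp8 at -0.33 (adjusted p = 0.0063) and mt-Nd4l at -0.50 (adjusted p = 0.00138).

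**Figure D3:**
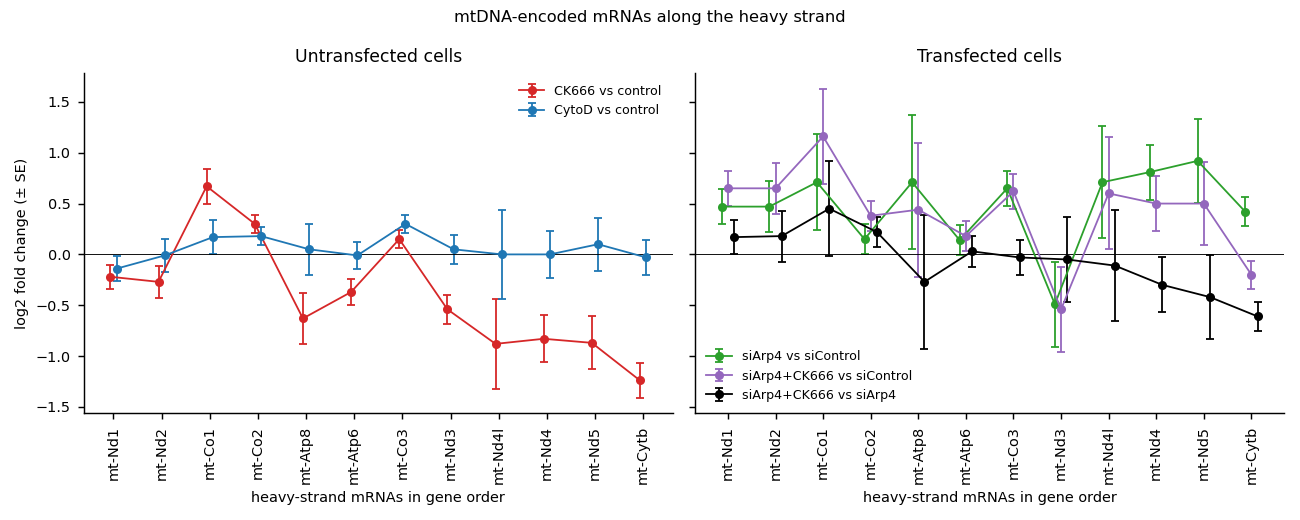
Fitted log2 fold change ± SE of the 12 heavy-strand messages in gene order (horizontal axis), for the untransfected (left) and transfected cells (right). CK666 against control falls from 0.67 at mt-Co1 to -1.24 at mt-Cytb, CytoD stays between -0.14 and 0.30, and CK666 on top of the knockdown (black) falls from 0.45 at mt-Co1 to -0.61 at mt-Cytb.

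Among nuclear-encoded subunits with a mean of at least 100 the CK666 differences ran from -0.39 to 0.93 on the log2 scale. Of all 79 tested 5 were called higher and 2 lower. Cox7a2l, counted here with complex IV, had 2736, 2362 and 2335 counts in control and 5548, 3562 and 3971 in CK666 (log2 fold change 0.82 ± 0.16, adjusted p = 4.41e-06). Ndufa6, an accessory subunit of complex I, had 589, 534 and 620 against 1501, 875 and 949.5 (0.93 ± 0.20, adjusted p = 1.31e-05). In both genes every CK666 library was above every control library, CK666 1 was the highest, and the rise stayed called without it, at 0.61 and 0.65. Atp5a1, the alpha subunit of the ATP synthase, moved the other way, from 21867, 18884 and 20108 to 15954, 15310 and 15254 (-0.39 ± 0.09, adjusted p = 4.89e-05), with no overlap and a call under all 14 alternatives.

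Cox6a2, the muscle form of a complex IV subunit, had the largest fold change of any member at a very low level. Its counts were 0.967, 3.90 and 4.14 in control, 85.5, 51.0 and 39.1 in CK666, and 4.25, 2.90 and 1.03 in CytoD. The CK666 libraries were above all control and CytoD libraries (log2 fold change 4.29 ± 0.71, adjusted p = 1.29e-08), while its partner Cox6a1 differed by 0.24 ± 0.16 (adjusted p = 0.24). In siArp4+CK666 it had 1.06, 0.954 and 11.6 counts against 0.842, 2.16 and 2.0 in siArp4. Cox6a2 overlaps Itgad on the opposite strand, so the assignment of these few reads is uncertain.

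The other nuclear-encoded calls depended on the test. Ndufa7 (0.65, adjusted p = 0.00358) and Ndufc2 (0.69, adjusted p = 0.00968), accessory subunits of complex I, were not called with edgeR, on the 2 groups alone or without any 1 of the control libraries. Ndufc2 was also not called without CK666 1 or CK666 3, with the replicate block (adjusted p = 0.0125) or with the filter on low counts (adjusted p = 0.0116). Without CK666 1 their values were 0.35, still called, and 0.32. Ndufs1 (-0.30, adjusted p = 0.0063), the large iron-sulfur subunit of complex I, was not called under 10 of 14 alternatives, and it shares bases with the abundant Eef1b2 on the other strand. The nuclear-encoded subunits of complexes II and III had no call, at medians of 0.07 and 0.11.

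As a group, nuclear-encoded subunits with a mean of at least 100 had a median log2 fold change of 0.19 after CK666 (62 of 77 above 0), against 0.04 over all genes at that level and -0.54 over the 13 mtDNA messages. By complex the medians were 0.23 in complex I, 0.24 in complex IV and 0.02 in complex V. The nuclear median rested on CK666 1: it was -0.06 without that library, with 5 subunits higher and 10 lower, 0.36 without CK666 2, with 18 higher and 1 lower, and 0.02 with the length trend removed, with 12 higher and 7 lower. The mtDNA median remained below 0 without CK666 1, at -0.33.

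After CytoD, Sdha and Sdhc of complex II were higher, and the mtDNA messages differed from control by -0.14 to 0.30 on the log2 scale. Of the 91 members tested 6 were higher and none lower, against a background of 13.6% of all genes tested called higher and 16.0% called lower; 15 members had an unadjusted p below 0.05, edgeR called 3 higher and none lower, and without single libraries the count was 2 to 4 (2 without control 2, CytoD 2 or CytoD 3, and 3 without control 3). Sdha, the flavoprotein of succinate dehydrogenase, had 2569, 2667 and 2546 counts in control, 3924, 3244 and 4479 in CytoD, and 2403, 2467 and 2724 in CK666. The CytoD libraries were above all control and CK666 libraries, and Sdha rose by 0.58 ± 0.13 on the log2 scale (adjusted p = 4.13e-05, DESeq2).

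Sdhc, a membrane anchor of the same complex, had 2838, 2437 and 2514 counts in control and 3523, 3619 and 3784 in CytoD (0.49 ± 0.10, adjusted p = 5.29e-06). The groups did not overlap, and both Sdha and Sdhc were called under all 14 alternatives. The other complex II genes did not pass the test, with Sdhb at 0.07 ± 0.18 (adjusted p = 0.783) and Sdhd at 0.01 ± 0.16 (adjusted p = 0.958). The 4 remaining calls were Ndufa6 (0.62), Ndufa13 (0.71), Cox8a (0.51) and mt-Co3 (0.30), and each was lost under 5 to 7 of 14 alternatives.

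The 77 nuclear-encoded subunits with a mean of at least 100 had a median of 0.23 after CytoD (66 above 0), against -0.04 over all genes and 0.05 over the mtDNA messages, whose differences lay between -0.14 and 0.30. Complex IV had the highest median, 0.35, and complex V the lowest, 0.14. On the control and CytoD libraries alone, with the CK666 libraries left out of the fit, 32 members were higher and none lower. Calls over all genes rose as well, from 4067 to 5414. With the length trend removed the nuclear median was 0.12, with 14 subunits higher and 1 lower.

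Set directly against CytoD, 5 of the 13 mtDNA messages were lower in CK666 cells and none was higher, while the nuclear-encoded subunits were divided. Of the 92 members tested 2 were higher and 7 lower in CK666, against a background of 16.9% of all genes tested called higher and 14.9% called lower. The mtDNA messages lower in CK666 were mt-Cytb (-1.22 ± 0.17, adjusted p = 8.49e-12), mt-Nd6 (-0.69 ± 0.10, adjusted p = 2.56e-10), mt-Nd5 (-0.97), mt-Nd4 (-0.83) and mt-Nd3 (-0.58), and mt-Cytb, mt-Nd6 and mt-Nd3 were called under all 14 alternatives. The value of mt-Co1 was 0.49 ± 0.17 and that of mt-Co2 0.12 ± 0.09, and 1 mtDNA message was called higher with TMM size factors, with the replicate block and without CK666 1 (mt-Co1 at 0.67 in the last). Of the nuclear-encoded subunits Sdha (-0.62 ± 0.13, adjusted p = 1.1e-05) and Sdhc (-0.31) were lower and Cox6a2 (4.43) and Ndufab1, the mitochondrial acyl carrier protein (0.45), higher; the calls of Sdhc and Ndufab1 were lost under 9 and 10 of 14 alternatives. Under the stricter rule mt-Cytb and Cox6a2 were called, against a background of 11.8%. Without CK666 1 the count of 9 became 43, with 34 nuclear-encoded subunits lower, and without CK666 2 it became 14, so the count for nuclear-encoded subunits rested on these libraries; with the length trend removed 3 nuclear-encoded subunits were higher and 18 lower.

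**Figure D4:**
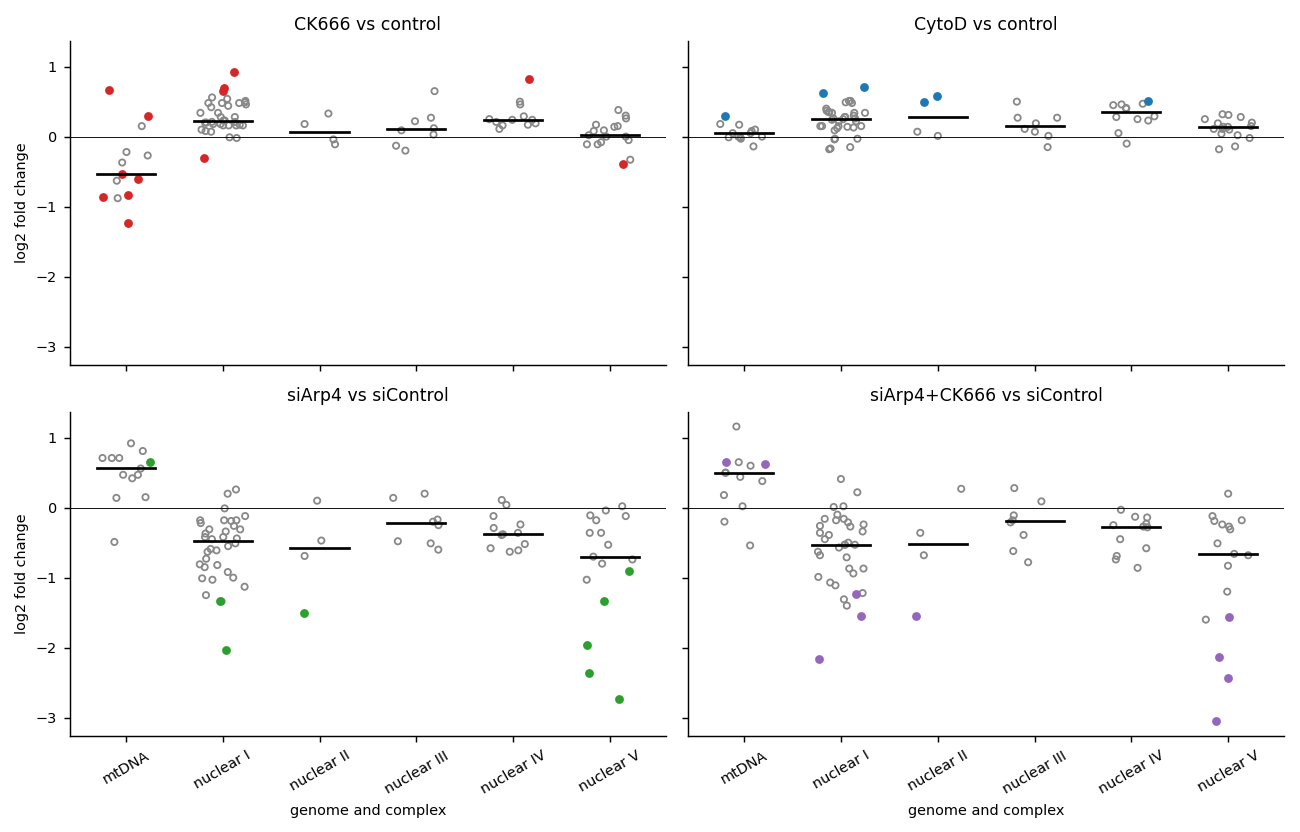
Fitted log2 fold change of each member with a mean of at least 100 normalized counts, grouped by genome and complex, in 4 comparisons; filled points passed an adjusted p below 0.01, open points did not, and bars are medians. The lowest point in each knockdown panel is Atp5f1, at -2.73 and -3.05, while most nuclear-encoded subunits lie above 0 after CK666 and CytoD.

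In Arp4-depleted cells, 5 nuclear-encoded subunits were strongly lower in both knockdown groups: Atp5f1, Atp5c1 and Atp5j2 of the ATP synthase, Ndufb11 of complex I and Sdhd of complex II. Of the 94 members tested in siArp4 against siControl 1 was higher and 9 lower, against a background of 11.9% of all genes tested called higher and 13.1% called lower. In siArp4+CK666 against siControl 2 were higher and 9 lower, against 14.0% and 15.8%. The stricter rule called 8 members in siArp4 and 9 in siArp4+CK666, all of them lower, against backgrounds of 16.2% and 20.4%. Both comparisons share the siControl libraries, so they are not independent of each other.

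Atp5f1 encodes the b subunit of the peripheral stalk of the ATP synthase and lies at chr3:105942698-105960099 on the minus strand. Its counts were 3631, 7969 and 5530 in siControl, 869, 892 and 825 in siArp4, with 528, 714 and 822 in siArp4+CK666. Even the lowest siControl library was far above every knockdown library, and Atp5f1 was 6.62-fold lower in siArp4 (log2 fold change -2.73 ± 0.30, adjusted p = 5.47e-18) and 8.30-fold lower in siArp4+CK666 (-3.05 ± 0.30, adjusted p = 1.43e-22). Without siControl 2 the values were -2.42 and -2.74. The gene overlaps the start of Wdr77 on the opposite strand, and Wdr77 was higher in both knockdown groups (1.07 and 1.19). The libraries were unstranded, and the part of shared reads in either difference was not tested.

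Atp5c1, the gamma subunit that turns inside the catalytic head, lies at chr2:10056016-10080510 on the minus strand. It had 5733, 7712 and 7519 counts in siControl, 1816, 1815 and 1750 in siArp4, with 1462, 1547 and 1754 in siArp4+CK666. The knockdown libraries sat within a narrow band far below siControl, with log2 fold changes of -1.96 ± 0.17 (adjusted p = 2.48e-29) and -2.14 ± 0.17 (adjusted p = 5.37e-35), or -1.89 and -2.06 without siControl 2. Atp5j2, the f subunit of the membrane part, at chr5:145183698-145192062 on the minus strand, had 2529, 8643 and 4779 counts in siControl, 1178, 1066 and 855 in siArp4, with 702, 940 and 1309 in siArp4+CK666. The groups did not overlap, although the siControl libraries varied widely, and the log2 fold changes were -2.36 ± 0.41 (adjusted p = 1.64e-07) and -2.43 ± 0.41 (adjusted p = 4.66e-08), or -1.83 and -1.90 without siControl 2.

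Ndufb11, an accessory subunit in the membrane arm of complex I at chrX:20615326-20617619 on the minus strand, had 1941, 7099 and 3374 counts in siControl, 1063, 1076 and 887 in siArp4, with 704, 904 and 1163 in siArp4+CK666. The groups were apart, with siControl 2 far above the other siControl libraries, and the log2 fold changes of -2.04 ± 0.42 (adjusted p = 1.04e-05) and -2.16 ± 0.42 (adjusted p = 1.88e-06) became -1.41 and -1.53 without it. Its neighbour Rbm10, which overlaps it on the opposite strand, was also lower (-1.06 and -1.02). Sdhd, a membrane anchor of complex II at chr9:50596357-50603812 on the minus strand, had 2109, 3647 and 2974 counts in siControl, 1070, 1069 and 924 in siArp4, with 795, 963 and 1219 in siArp4+CK666. No knockdown library reached the lowest siControl library, and the log2 fold changes were -1.51 ± 0.25 (adjusted p = 4.71e-08) and -1.55 ± 0.26 (adjusted p = 1.35e-08), or -1.32 and -1.36 without siControl 2.

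These 5 subunits were called in both knockdown groups under all 14 alternatives, including edgeR, the length trend removed and each library left out in turn. With the length trend removed the log2 fold changes in siArp4 were -2.48 for Atp5f1, -1.94 for Atp5j2, -1.71 for Atp5c1, -1.58 for Ndufb11 and -1.22 for Sdhd. None of the 5 was called after CK666 or CytoD in untransfected cells with all libraries; without CK666 1, Atp5j2 was lower after CK666 (-0.31, adjusted p = 0.00926).

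**Figure D5:**
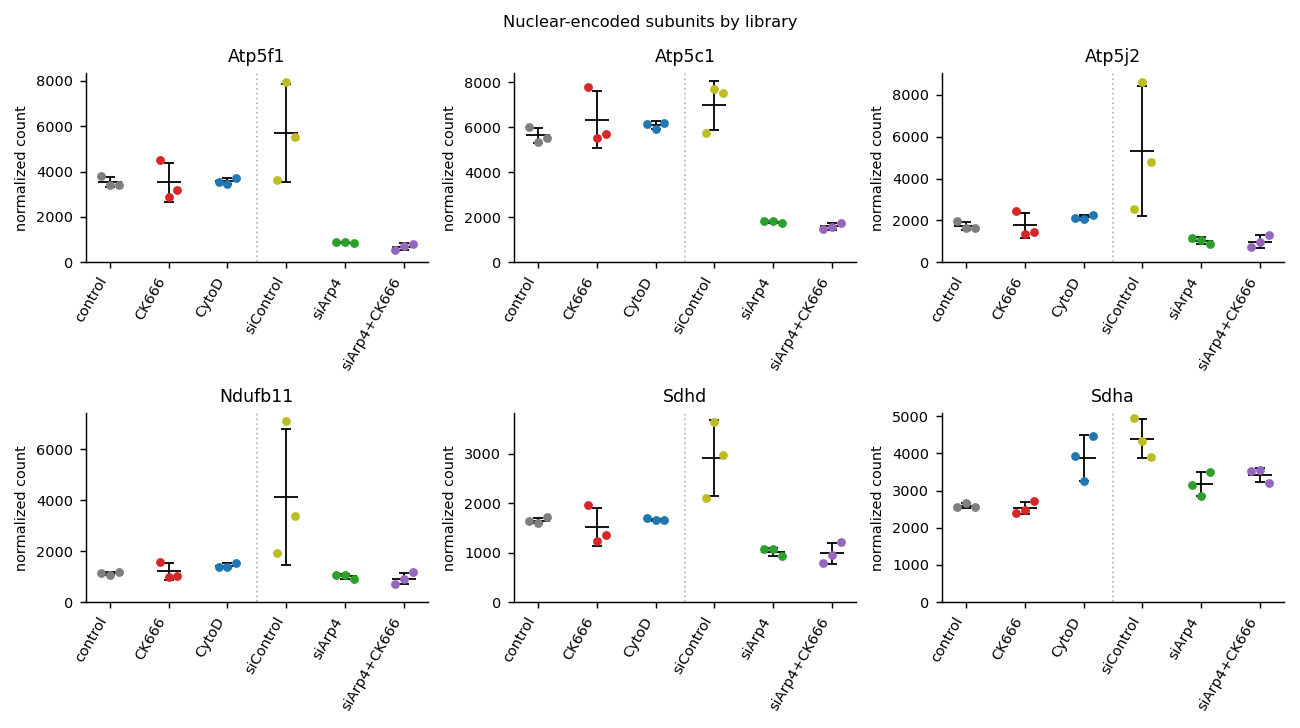
Normalized counts of Atp5f1, Atp5c1, Atp5j2, Ndufb11 and Sdhd, and of Sdha for comparison, by group; points are libraries, bars the mean ± SD (n = 3), and the dotted line separates the separately normalized experiments. In the first 5 genes every siArp4 and siArp4+CK666 library lies below every siControl library, of which siControl 2 is the highest.

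The promoters of Atp5f1, Atp5j2 and Ndufb11 are shown because these subunits fell together, with 250 bases before and 50 after the RefSeq start (GRCm38.p6, minus strand, written 5′ to 3′). Capitals mark matches on either strand to a nuclear respiratory factor 1 motif (GCGCATG), an ETS motif of the GABP kind (CGGAAG) and a YY1 motif (AAGATGG), which can overlap, since the end of the ETS motif can be the start of the YY1 motif. CCAAT was searched as well and is not capitalised. The windows are chr3:105959214-105959513 for Atp5f1, which RefSeq names Atp5pb, chr5:145191492-145191791 for Atp5j2 and chrX:20617570-20617869 for Ndufb11.
Atp5f1: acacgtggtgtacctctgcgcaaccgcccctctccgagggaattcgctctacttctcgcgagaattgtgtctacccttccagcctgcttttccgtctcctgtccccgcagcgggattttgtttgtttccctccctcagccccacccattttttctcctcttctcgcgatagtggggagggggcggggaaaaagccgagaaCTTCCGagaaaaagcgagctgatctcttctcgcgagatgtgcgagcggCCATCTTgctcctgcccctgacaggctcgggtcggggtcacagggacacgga
Atp5j2: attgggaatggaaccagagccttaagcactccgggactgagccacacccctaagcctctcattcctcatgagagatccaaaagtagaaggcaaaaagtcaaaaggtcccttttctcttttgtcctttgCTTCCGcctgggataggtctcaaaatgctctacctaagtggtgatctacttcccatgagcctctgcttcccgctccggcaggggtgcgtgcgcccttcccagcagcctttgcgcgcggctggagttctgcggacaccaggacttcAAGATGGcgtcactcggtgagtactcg
Ndufb11: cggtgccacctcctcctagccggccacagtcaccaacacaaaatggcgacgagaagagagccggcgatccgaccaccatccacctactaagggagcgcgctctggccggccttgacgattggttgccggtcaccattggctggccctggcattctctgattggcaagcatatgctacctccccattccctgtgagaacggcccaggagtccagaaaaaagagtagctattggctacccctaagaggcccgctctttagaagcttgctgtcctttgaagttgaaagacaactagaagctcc
Atp5f1 and Atp5j2 hold 1 ETS match and 1 YY1 match each, Atp5c1 and Sdhd hold an ETS match, and Ndufb11 holds no match to the capitalised motifs. CCAAT, on either strand, is in the windows of Ndufb11, Atp5j2 and Atp5c1. The annotated start of Wdr77 lies inside the Atp5f1 window. A RefSeq promoter was matched for 69 of the 86 nuclear-encoded rows, and 36.2% of these held the ETS letters, 18.8% the nuclear respiratory factor 1 letters and 14.5% the YY1 letters, against 17.2%, 4.04% and 6.48% of 27025 promoters, while CCAAT was in 43.5% against 37.9%. These matches describe the letters in the window and not a bound factor.

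Other subunits called in the knockdown rested more on single libraries. Atp5g1, a c-ring subunit of the ATP synthase, had 1868, 6942 and 3347 counts in siControl, 1700, 1719 and 1394 in siArp4, with 1063, 1325 and 1731 in siArp4+CK666 (-1.34, adjusted p = 0.0061, and -1.56, adjusted p = 0.000899). Library siControl 1 was close to the knockdown libraries, and without siControl 2 the siArp4 value was -0.71 and not called. Ndufb2 of complex I (-1.33 and -1.23) and Atp5b (-0.91, siArp4 only) were lost under 5 to 7 alternatives. Without siControl 2, Ndufb2 was at -0.77 and -0.67 and not called, and Atp5b was at -0.51 and still called. Cox7a1, the muscle form of a complex IV subunit, had 10.9, 51.6 and 29.0 counts in siControl and 5.05, 2.16 and 4.01 in siArp4 (-2.99, adjusted p = 0.00111), and it was not called without siControl 2 (adjusted p = 0.0307).

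Over all 77 nuclear-encoded subunits with a mean of at least 100 the median log2 fold change was -0.45 in both knockdown groups, with 69 of 77 below 0 in each, against -0.04 and -0.00 over all genes at that level. This median rested on siControl 2: without it the median was 0.03 in both, with 6 subunits lower in each and 0 and 1 higher, while without siControl 1 it was -0.76 and -0.82, with 34 and 33 subunits lower. With the length trend removed the medians were -0.09 and 0.04. The siArp4+CK666 median was -0.66 without siArp4+CK666 3, -0.43 without siArp4+CK666 2 and -0.32 without siArp4+CK666 1. The count of called members, 10 in siArp4, was 38 without siControl 1, 5 without siArp4 2 and 6 without siArp4 3; in siArp4+CK666 the count of 11 was 40 without siControl 1 and 7 without siArp4+CK666 1 or 2. By complex the siArp4 medians ran from -0.70 in complex V to -0.23 in complex III.

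Of the 13 mtDNA messages 12 were above 0 in siArp4 and 11 in siArp4+CK666. Their median was 0.56 in siArp4 and 0.50 in siArp4+CK666, and 1 and 2 of the 13 passed the test. mt-Co3 of complex IV had 43131, 48098 and 59397 counts in siControl, 73930, 84355 and 78010 in siArp4, with 72634, 74654 and 83889 in siArp4+CK666. All knockdown libraries were above all siControl libraries (0.65 ± 0.17, adjusted p = 0.000653, and 0.62 ± 0.17, adjusted p = 0.00105), but neither call was kept with edgeR (adjusted p = 0.0136 and 0.0144). The call in siArp4 was also lost without siArp4 2 or siArp4 3. That in siArp4+CK666 was also lost on the 2 groups alone and without siArp4+CK666 2 or 3. mt-Nd1 was called in siArp4+CK666 (0.65, adjusted p = 0.000927) and lost under 7 of 14 alternatives. Without siControl 2 the mtDNA medians were 0.27 and 0.17.

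Both mitochondrial ribosomal RNAs were higher in the knockdown. mt-Rnr1 had 1859, 1861 and 2118 counts in siControl, 5132, 5645 and 5594 in siArp4, with 5146, 4976 and 5388 in siArp4+CK666. All 6 knockdown libraries were above siControl, and siControl 2 did not stand apart here (1.49 ± 0.12, adjusted p = 1.53e-32, and 1.41 ± 0.12, adjusted p = 1.54e-29). mt-Rnr2 had 5212, 2749 and 3598 counts in siControl, 10967, 12068 and 12283 in siArp4, with 8480, 7411 and 7437 in siArp4+CK666 (1.61 ± 0.24 and 1.01 ± 0.24). These calls were kept under all 14 alternatives.

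With CK666 given on top of the knockdown, few members passed the test. Small differences could be missed here. In counts simulated with the spread of the transfected libraries, 1 of 66 true differences of 0.5 on the log2 scale was called. With the spread of the untransfected libraries it was 17 of 66. Of the 91 members tested none was higher and 1 lower, against a background of 3.82% of all genes tested called higher and 6.07% called lower; 2 members had an unadjusted p below 0.05, and edgeR called none. The 1 called was again mt-Cytb, at 49783, 53283 and 56217 counts in siArp4 against 35001, 35161 and 33856 in siArp4+CK666 (-0.61 ± 0.14, adjusted p = 0.000375). The groups were far apart, yet the call was lost under 8 of 14 alternatives, among them edgeR (adjusted p = 0.0248), the length trend removed, and without siArp4 2 or 3 or any siArp4+CK666 library. Values along the heavy strand ran from 0.45 ± 0.47 for mt-Co1 to -0.61 for mt-Cytb, with a Spearman's rho of -0.87 with gene order over the 12 genes, and the other messages did not pass the test. The nuclear median was -0.04 with all libraries. It was -0.24 without siArp4+CK666 3 and 0.14 without siArp4+CK666 1.

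The CK666 effect in knockdown cells was set against that in untransfected cells in 1 model, in which the knockdown and the transfection cannot be told apart. Of the 91 members tested 1 was called, Atp5a1, against a background of 7.82%. CK666 went with a lower Atp5a1 in untransfected cells, and its counts were 15152, 14758 and 14529 in siArp4, with 14597, 15863 and 16854 in siArp4+CK666, a difference between the effects of 0.47 ± 0.13 (adjusted p = 0.00402). This call was lost under 11 of 19 alternatives, among them edgeR, and without either of control 1 and 3, either of CK666 2 and 3, any siArp4 library, or either of siArp4+CK666 2 and 3. For mt-Cytb the difference was 0.63 ± 0.22 (adjusted p = 0.0423), which did not pass the test. Outside the members, mt-Rnr1 and mt-Rnr2 were called, at -1.67 ± 0.16 (adjusted p = 1.21e-22) and -1.40 ± 0.24 (adjusted p = 2.72e-07): CK666 was accompanied by a rise of both in untransfected cells and by differences of -0.08 and -0.60, neither called, in knockdown cells. The call of mt-Rnr2 was lost with the length trend removed, and that of mt-Rnr1 was kept under all 19 alternatives. In the related lists described next 14 further genes were called, against the same background of 7.82%. By list, 4 of 16 chaperones and proteases tested and 2 of 50 assembly factors were called. Of 31 genes of mtDNA replication, transcription and message stability, 13 regulators of mitochondrial biogenesis and 19 electron carrier genes, 1 each was called. None of 20 import genes and 78 mitochondrial ribosomal proteins was called. The 14 included 5 of 26 genes of pyruvate dehydrogenase and the tricarboxylic acid cycle, among them Dlst (0.47), Cs (0.56) and Ogdh (0.96), and the chaperones and proteases Atf5 (1.22), Afg3l2 (0.72), Lonp1 (-1.18) and Dnaja3 (-1.02), with Cox18 (-1.23), Ndufaf7 (-0.75) and Sqor (-1.55) from other lists. Of these 14 the calls of Ogdh, Atf5, Lonp1, Dnaja3, Cox18 and Sqor were kept under all 19 alternatives, and those of the other 8 were not, 4 of them lost under most alternatives and left unnamed.

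Genes that build and supply the complexes were read from lists. After CK666, 14 of 51 assembly factors were higher and 1 lower, 12 of 31 genes of mtDNA replication, transcription and message stability were higher and 2 lower, and 15 of 78 mitochondrial ribosomal proteins were higher and 1 lower, with medians of 0.26, 0.40 and 0.27 against 0.04 over all genes, of which 15.3% were called higher and 14.7% lower. Among them were Sco2, a copper chaperone of complex IV (1.05), Trmt10c, a subunit of the mitochondrial RNase P that cuts the precursors (0.90), Tefm, the mitochondrial transcription elongation factor (0.89), and Mrpl24 (1.11), with Polg, the mtDNA polymerase, lower (-0.56). The calls of Tefm and Polg were lost with edgeR (adjusted p = 0.0203 and 0.0115), that of Tefm also without CK666 1, CK666 3, control 2 or control 3, and that of Polg without control 1 or CK666 3. Of 16 mitochondrial chaperones and proteases 7 were higher, among them the protease Lonp1 (1.5 ± 0.09, adjusted p = 3.04e-55) and Dnaja3 (1.31), and 1 lower. Without CK666 1 assembly factors were higher in 8 cases and lower in 3, mtDNA expression genes in 9 and 2, ribosomal proteins in 14 and 6, and chaperones and proteases in 7 and 1, and the medians of assembly factors and ribosomal proteins fell to 0.08 and 0.03. Removal of the length trend gave 14 and 2, 11 and 1, 16 and 6, and 7 and 1. With each control or CK666 library left out in turn, higher calls ran from 7 (without control 2 or 3) to 16 (without CK666 2) for assembly factors. For ribosomal proteins they ran from 9 (without control 2) to 24 (without CK666 2).

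After CytoD, genes of the 5 lists given here were called lower more often than higher, against a background of 13.6% of all genes higher and 16.0% lower. The regulators of mitochondrial biogenesis, given below, were so as well. Assembly factors were called higher in 1 case and lower in 4 (50 tested), mtDNA expression genes in 1 and 7 (31), ribosomal proteins in 1 and 8 (78), chaperones and proteases in 0 and 6 (10 of 16 with an unadjusted p below 0.05), and import genes in 0 and 6 (11 of 20). The lower calls of assembly factors and ribosomal proteins were thus a smaller share than that of all genes, and those of the other 3 lists a larger one. Among the lower genes of these lists were Ndufaf4, a complex I assembly factor (-1.72), Atf5, a factor of the mitochondrial unfolded protein response (-1.34), Hspd1, the matrix chaperonin (-1.18), and Tbrg4, which acts on mitochondrial RNA (-1.12). Their medians were 0.03, -0.28, -0.09, -0.37 and -0.31, against -0.04 over all genes, while the median of the subunits was above 0. With the length trend removed the pairs of counts in the same order were 4 and 6, 1 and 5, 2 and 16, 0 and 10, and 1 and 9, and the 8 lower ribosomal proteins were 3 without control 1 or CytoD 1, 4 without control 3 or CytoD 2 and 5 without control 2 or CytoD 3.

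Set against each other in the same order, CK666 and CytoD cells differed in these lists by 14, 16, 25, 11 and 12 genes higher in CK666 and 2, 0, 0, 1 and 0 lower, among them Atf5 (2.28 ± 0.12, adjusted p = 6.03e-81) and Hspa9 (1.85 ± 0.07, adjusted p = 6.5e-158). The lists had 51, 31, 78, 16 and 20 genes tested, and the background was 16.9% of all genes higher and 14.9% lower. Without CK666 1 these were 9, 16, 23, 11 and 10 higher and 5, 0, 8, 1 and 2 lower. Of the genes of pyruvate dehydrogenase and the tricarboxylic acid cycle 3 of 26 were higher and 5 lower after CK666, among them Pdhb (1.08) and Pdk1 (-0.81), and 6 were higher and 3 lower after CytoD, among them Pdk2 (1.13) and Cs (-0.34). Of 19 genes tested for electron carriers and ubiquinone synthesis 5 were higher and 1 lower after CK666 (Sqor 1.63, Pdss1 -1.36) and 5 higher and 3 lower after CytoD (Coq8a 1.54, Pdss1 -1.64). Without CK666 1 the electron carrier genes were higher in 3 cases and lower in 5 after CK666. The counts after CytoD were read again with each control or CytoD library left out. The pyruvate dehydrogenase and tricarboxylic acid cycle genes were then higher in 3 cases and lower in 0 or 1. Cs was not called without control 1, control 3 or CytoD 1. The electron carrier genes were higher in 1 or 2 cases and lower in 2 or 3. Of 14 regulators of mitochondrial biogenesis tested 1 was higher and 1 lower after CK666 (Nfe2l2 0.71, and the coactivator Pprc1 -0.29, lost under 9 of 14 alternatives) and 1 higher and 3 lower after CytoD (Pprc1 -1.45), and without CK666 1 the counts after CK666 were 2 and 3. Import genes were higher in 4 cases after CK666, among them Timm10 (1.17), and lower in none (5 of 20 had an unadjusted p below 0.05).

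In the knockdown the lists were mixed, against the backgrounds of 11.9% of all genes higher and 13.1% lower in siArp4, and 14.0% and 15.8% in siArp4+CK666. Assembly factors were called higher in 4 and lower in 9 cases in siArp4, and in 5 and 12 in siArp4+CK666, among them Sdhaf4, an assembly factor of complex II (-3.42 and -3.51), and Ttc19 of complex III (1.14 and 0.69). Mitochondrial ribosomal proteins were higher in 5 and lower in 8, and in 9 and 14, among them Mrps7 (-2.04 and -2.47) and Mrpl10 (1.18 and 1.31). mtDNA expression genes were higher in 6 and lower in 5, and in 8 and 5, with Tfb1m, a methyltransferase of the small ribosomal RNA, higher (1.42 and 1.36). Regulators were higher in 4 and lower in 1, and in 4 and 0 (5 of 13 tested had an unadjusted p below 0.05), among them Gabpa (1.29) and Gabpb1 (0.80 and 0.89), whose products form the factor that binds ETS letters; Gabpa overlaps the member Atp5j on the opposite strand, and its call was lost with edgeR (adjusted p = 0.0209), with size factors from library totals and without siControl 3 or siArp4 3. Without siControl 2, assembly factors were higher in 9 and lower in 6 cases in siArp4, and in 7 and 8 in siArp4+CK666, ribosomal proteins in 7 and 6, and in 13 and 10, mtDNA expression genes in 6 and 3, and in 9 and 6, and the counts of regulators were as with all libraries. Without siControl 1, ribosomal proteins were higher in 3 and lower in 30 cases in siArp4, and in 6 and 32 in siArp4+CK666. Assembly factors were higher in 3 and lower in 16, and in 3 and 14, and mtDNA expression genes in 8 and 7, and in 9 and 9. With the length trend removed, ribosomal proteins were higher in 15 and lower in 15, and in 22 and 15, and assembly factors in 7 and 9, and in 12 and 10.

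Genes of pyruvate dehydrogenase and the tricarboxylic acid cycle were higher in 6 and lower in 4 in siArp4, and in 6 and 3 in siArp4+CK666, among them Idh2, the mitochondrial NADP-linked isocitrate dehydrogenase (-1.74 and -1.37), and Pdk2, a pyruvate dehydrogenase kinase (1.02 and 1.29). Electron carrier genes were higher in 2 and lower in 3, and in 3 and 3, among them Etfb (-1.43 and -1.85). Import genes were higher in 1 and lower in 3, and in 1 and 1, among them Timm23, the inner membrane channel (-1.67 and -1.5), and Tomm70a (1.24 and 1.52), and chaperones and proteases were higher in 2 and lower in 4, and in 7 and 4, among them Afg3l1 (-1.61 and -1.57) and Lonp1 (0.94). Without siControl 2 these 4 lists, in the same order, were higher in 5, 2, 2 and 2 and lower in 4, 3, 2 and 4 cases in siArp4, and higher in 7, 5, 3 and 8 and lower in 3, 3, 1 and 3 in siArp4+CK666. Without siControl 1 they were higher in 6, 1, 1 and 3 and lower in 5, 6, 6 and 7 in siArp4, and higher in 7, 4, 1 and 7 and lower in 4, 4, 7 and 4 in siArp4+CK666. After removal of the length trend they were higher in 6, 2, 5 and 3 and lower in 5, 3, 4 and 5 in siArp4, and higher in 10, 4, 7 and 8 and lower in 3, 4, 2 and 4 in siArp4+CK666. With CK666 on top of the knockdown 4 chaperone and protease genes were higher and none lower (6 of 16 with an unadjusted p below 0.05), among them Atf5 (2.16 ± 0.22) and Afg3l2 (1.2), and 2 assembly factors were lower, Cox20 (-1.28) and Cox18 (-0.96), both of complex IV, and 1 higher, with Lrpprc, which stabilises mtDNA messages, higher by 0.51 and the import receptor Tomm20 by 0.78. Without siArp4 1 the calls of Cox20, Cox18, Lrpprc and Tomm20 were all lost, and 3 chaperone and protease genes were higher. With the length trend removed Lrpprc was not called, while 3 import genes and 6 chaperone and protease genes were higher.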

How the data were processed

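RNA-seq libraries were made from total RNA by an unstranded service protocol. The authors quantified the reads with Salmon 1.2.1 against GENCODE transcripts of GRCm38 and deposited estimated counts per gene, which were rounded to whole numbers here; gene names came from GENCODE, with 253 identifiers unmatched. Each experiment (9 libraries, 6 groups of 3 in all) was fitted separately with DESeq2 1.42.0 in R 4.3.3, without a replicate term, with p-values adjusted over all genes tested and calls at an adjusted p below 0.01. Normalized counts are counts divided by size factors. Levels of genes are set side by side only per kilobase of transcript. Levels were not compared between experiments, and the interaction came from 1 model of all 18 libraries. The scripts were tested on simulated data. Group medians use genes with a mean of at least 100 normalized counts. Named were the mtDNA messages, the markers mt-Co1 and Cox5a, the 5 largest rises and falls among nuclear-encoded members past the test, members past the stricter rule, complex IV isoform partners, the Sdh genes, and in each related list up to 2 genes per direction; overlapping neighbours were named after their values were seen. Members and lists were chosen with earlier results of these data known. Alternatives were other size factors, a count filter, a replicate term, edgeR 4.0.16, the 2 groups alone, each library left out, and a transcript length trend removed by loess. Promoters and motifs were read from RefSeq windows of 300 bases. The values of 1 member called in the knockdown are not reported here.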

Additional observations from a re-analysis of the deposited data

Results flagged for a closer look

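The CK666 effect differed between knockdown and untransfected cells in 1 member, both mitochondrial ribosomal RNAs and 14 further genes of the related lists by the interaction test of DESeq2, in which transfection and knockdown cannot be told apart, against a background of 7.82% of all genes. Those called included 5 of 26 genes of pyruvate dehydrogenase and the tricarboxylic acid cycle, 4 of 16 chaperones and proteases and 2 of 50 assembly factors. Of 31 genes of mtDNA expression, 13 regulators and 19 electron carrier genes 1 each was called, and none of 20 import genes and 78 mitochondrial ribosomal proteins. For Atp5a1, the alpha subunit of the ATP synthase, the effect in knockdown cells was higher by 0.47 on the log2 scale, a call lost under 11 of 19 alternatives, edgeR among them. For mt-Rnr1 and mt-Rnr2 the difference was -1.67 and -1.40, and the call of mt-Rnr2 was lost with the length trend removed. The difference was 0.96 for Ogdh, 1.22 for Atf5, -1.18 for Lonp1, -1.02 for Dnaja3, -1.23 for Cox18 and -1.55 for Sqor, each called under all 19 alternatives. It was 0.47 for Dlst, 0.56 for Cs and 0.72 for Afg3l2, each lost under 1 alternative (edgeR for Dlst, size factors from library totals for the other two), and -0.75 for Ndufaf7, lost under 9. The other 4 calls were lost under most alternatives, and their values are not given.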

How the results depend on the processing

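Of 733 alternative values for the 52 calls of named members at an adjusted p below 0.01, none changed direction. Of these values 574 kept the call and 159 did not, and 23 calls were made under every such alternative. Members that did not pass the test are outside this count, and Cox5a in siArp4+CK666 did change sign without siControl 2. The length trend, and counts of the related lists without single libraries, were chosen after seeing the data. Counts of called members, given for CK666, CytoD, CK666 against CytoD, siArp4, siArp4+CK666, siArp4+CK666 against siArp4 and the interaction in this order, were 14, 6, 9, 10, 11, 1 and 1. An adjusted p below 0.05 gave 25, 12, 15, 18 and 22 for the first 5 and 2 for the interaction. The length trend removed gave 22, 15, 25, 21 and 23 for the first 5 and 5 for the interaction. edgeR gave 8, 3, 5, 6, 6, 0 and 0. Size factors from library totals gave 12 for CytoD and 0 for siArp4+CK666 against siArp4, and the 2 groups alone gave 32 for CytoD and 7 for siArp4+CK666. Leaving out single libraries gave 8 to 29, 2 to 4, 6 to 43, 5 to 38, 7 to 40, 0 to 1 and 0 to 1. The mtDNA median minus the nuclear median was -0.73, -0.18, -0.56, 1.02, 0.95 and -0.01 in the 6 comparisons, and -0.82 to -0.27, -0.26 to -0.07, -0.67 to -0.10, 0.24 to 1.31, 0.14 to 1.5 and -0.27 to 0.20 without single libraries. Same-numbered libraries correlated from -0.61 to 0.79 in their deviations, so the replicate numbers were not shown to pair samples; with a replicate block the counts were 16, 6, 10, 12, 11, 2 and 1. Members with a mean below 100 normalized counts, where counting error is widest, stayed out of the group medians.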
